A study of Mus musculus with 8 samples.

Results

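The 35 genes described here are Myc and 34 genes whose products build ribosomes or supply that work with polyamines and pyrimidines, out of 25230 gene symbols counted in intraepithelial lymphocytes (IELs) of the mouse gut. They were chosen by name from knowledge of the pathway, with earlier results of the same data known, and each was found in the table under its symbol. Of the 8 C57BL/6J mice, 4 received the GLP-1 receptor agonist exendin-4 (Ex4) at 10 nmol/kg together with 35 µg of an anti-CD3 antibody, which triggers the T cell receptor complex, and 4 received the same antibody with PBS. Gut cells were enriched on Percoll, sorted for the leukocyte protein CD45 and lysed 3 hours after the injection. The labels name 1 mouse per library, and both groups carry anti-CD3, so that every value describes IELs of mice given the antibody.

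MYC is a transcription factor that T cells induce soon after receptor triggering, and it drives the growth that precedes division. Much of that growth consists of ribosome production: RNA polymerase I transcribes the ribosomal RNA precursor in the nucleolus, small nucleolar ribonucleoproteins (snoRNPs) modify it, and assembly factors fold and cut it into the small 40S and large 60S subunits. Many genes of this machinery are textbook MYC targets, as are genes of polyamine and pyrimidine synthesis.

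Total gene counts ran from 13386889 to 31843413 in Ex4 libraries and from 18266449 to 25333644 in PBS libraries, and Ex4 4 was the shallowest. All 35 genes passed the filter on low counts, with at least 292 counts in each library. Summed T cell and IEL markers (11 genes, Cd3e, Cd8a, Itgae and Gzmb among them) ran from 70141 to 83849 CPM (counts relative to library size with TMM scaling, the unit of all levels here) in Ex4 libraries and from 53578 to 78915 CPM in PBS libraries. Cd8a, the gene of the CD8 alpha chain, stood lower with Ex4, at 953, 1219, 998 and 1070.5 CPM with Ex4 and at 2074, 1513, 1363 and 1450 CPM with PBS, without overlap (log2 fold change -0.59, SE 0.16, edgeR adjusted p = 0.351, DESeq2 adjusted p = 0.0406). DESeq2 gave 75 of 21439 genes an adjusted p under 0.05, and edgeR 2 of 14691. Over the 11 T cell and IEL markers, 4 log2 fold changes were below 0 and 7 above, with a median of 0.04. The part of Cd8a in the values of the 35 genes was not tested. Since a CD45 sort keeps every leukocyte, B and plasma cell markers were present too, at 255 to 2165 CPM with Ex4 and 843 to 1452 CPM with PBS, and myeloid markers at 131 to 203 CPM with Ex4 and 123 to 218 CPM with PBS. Epithelial markers (18 genes) summed to 318 to 623 CPM in Ex4 libraries and 606 to 1233 CPM in PBS libraries, with 16 of the 18 lower in the mean with Ex4 and none at 0. Stromal and endothelial markers stayed between 50.2 and 68.6 CPM with Ex4 and between 58.5 and 99 CPM with PBS. In bulk RNA, fewer cells of a type and less RNA per cell cannot be told apart.

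The comparison sets these genes in IELs of mice given exendin-4 beside the same genes in IELs of mice given PBS. Of the 35 genes, 33 had a log2 fold change of Ex4 over PBS below 0, whereas 47.1% of the 14691 genes tested lay below 0. The 35 genes correlated with each other over the 8 libraries (median Pearson r of 0.55 over pairs). Counts of them, here and below, therefore do not stand for 35 separate observations. The median log2 fold change of the 35 was -0.17, beside 0.02 for all genes tested, so the differences were small and mostly in one direction. None of the 35 passed the edgeR quasi-likelihood test over all genes, in which 0.0136% of genes did (either direction). At an unadjusted p under 0.05, 5 of the 35 were lower with Ex4 and 0 higher, or 14.3% against a background of 3.9% of all genes lower and 3.71% higher. That count was 2 without Ex4 4 and 8 without Ex4 3, where 3.64% and 4.51% of all genes were lower at that threshold. It was 11 with the label run (described at the end) as a term, where 6.70% were. Ex4 3 was the only library of its run, so that fit also left it out of the Ex4 difference. DESeq2 and limma-voom also called 0 of the 35. At an unadjusted p under 0.05, 5 and 6 of the 35 were lower, beside 3.46% and 3.81% of all genes in these fits.

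In 4 of the 35, Wdr12, Rrp9, Ppan and Srm, every Ex4 library lay below every PBS library, a pattern that 2.66% of all genes tested showed in this direction. Leaving out a single library can hardly close such a gap, so that the same 4 genes stayed apart follows from the pattern itself. Non-overlap became more frequent among all genes too. The count was 7 without Ex4 1, PBS 1 or PBS 3 (3.89%, 4.15% and 5.51% of all genes) and 10 without Ex4 3 (4.89%). It was 5 without Ex4 4, Ex4 2 or PBS 4 (4.42%, 5.00% and 4.58%) and 4 without PBS 2 (4.55%). No gene among the 35 had every Ex4 library above every PBS library. The mean log2 CPM of all 35 was 7.29, 7.22, 7.32 and 7.0 in Ex4 replicates 1 to 4, against 7.34, 7.47, 7.38 and 7.38 in PBS replicates 1 to 4. These means did not overlap, but Ex4 3 at 7.32 and PBS 1 at 7.34 lay closer to each other than the SDs of 0.14 in Ex4 and 0.05 in PBS. Together the 35 genes took 0.777 ± 0.0595% of all counts with Ex4 and 0.883 ± 0.00936% with PBS (SD, n = 4 each).

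One library held much of this difference. Ex4 4 had the lowest value of all 8 libraries in 27 of the 35 genes, or 77.1%, whereas it was the lowest in 17.7% of all genes tested. Without it, 32 of the 35 were still below 0, the median log2 fold change was -0.12, and that of all genes was -0.01. It was the shallowest library and also the one with the most genes detected at matched depth, 19087 against 16475 to 18877 in the other Ex4 libraries and 16138 to 18077 in PBS libraries. The part of depth or RNA content in the low values of Ex4 4 was not tested.

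**Figure D1:**
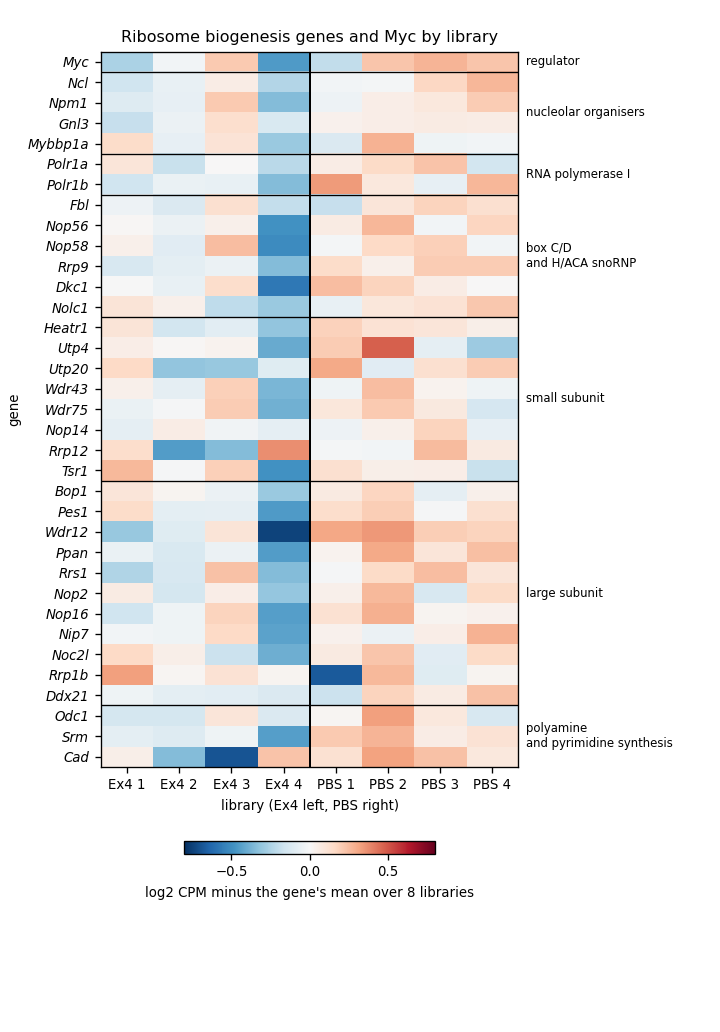
Level of each of the 35 genes (rows, grouped by role) in each library (columns, 4 Ex4 left of 4 PBS), as log2 CPM minus the gene's own mean over the 8 libraries. The column of Ex4 4 is the lowest in 27 of 35 rows, while Rrp12 and Cad are above their own mean there.

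Myc itself, at chr15:61985341-61990361 of GRCm38 (mm10), was measured at 452, 528, 621 and 393 CPM in Ex4 libraries, against 469, 626, 648 and 626 CPM in PBS libraries. Ex4 3 stood as high as most PBS libraries and PBS 1 close to Ex4 1, so the groups overlapped. The edgeR fit put the log2 fold change of Myc at -0.25 (SE 0.16, adjusted p = 0.781). An exact two-sided permutation of its log2 CPM over 70 assignments gave p = 0.171, where 0.0286 is the smallest possible. Its value was -0.39 without Ex4 3 and -0.16 without Ex4 4. With the epithelial marker score as a term in the model, the log2 fold change of Myc was -0.14 and the median of the 35 genes was -0.16.

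Among the proteins that organise the nucleolus, the 4 genes measured were below 0 and none passed, with a median log2 fold change of -0.12 that was -0.08 without Ex4 4 and -0.23 without Ex4 3. Npm1, which encodes nucleophosmin, a chaperone of the granular outer zone of the nucleolus, was the most abundant of the 35 per length, at 1333 CPM per coding kilobase with Ex4 and 1469.6 with PBS. Its levels of 1136, 1165, 1411 and 960.0 CPM in Ex4 libraries straddled those of 1185, 1265, 1294 and 1406 CPM in PBS libraries, and Ex4 3 held the highest value of all 8. Npm1 has near-identical pseudogene copies, so its counts are uncertain. Ncl encodes nucleolin, which binds nascent ribosomal RNA. It was measured at 786, 841, 913 and 744 CPM with Ex4 and at 863, 868, 983 and 1056 CPM with PBS (log2 fold change -0.20, SE 0.13, edgeR adjusted p = 0.785), and of the Ex4 libraries only Ex4 3 reached into the PBS range. Gnl3, the gene of the GTP-binding protein nucleostemin, stood at 149.5 ± 14.8 CPM with Ex4 and 161 ± 1.51 CPM with PBS (SD, n = 4 each), with 4 PBS libraries that hardly differed. Mybbp1a, which encodes a nucleolar partner of MYB, had means of 149.6 CPM with Ex4 and 155 CPM with PBS.

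RNA polymerase I was represented by its 2 largest subunits. Polr1b encodes the second-largest one, and it was measured at 113, 122, 121 and 99 CPM in Ex4 libraries and at 159, 133, 121 and 152 CPM in PBS libraries. Only PBS 3, at 121 CPM, fell within the Ex4 range. In the edgeR fit Polr1b differed by -0.31 on the log2 scale (SE 0.13, unadjusted p = 0.0311, adjusted p = 0.592). Polr1a, the gene of the catalytic subunit, averaged 45.2 ± 4.69 CPM with Ex4 and 50 ± 5.42 CPM with PBS (SD, n = 4 each), a difference within the replicate spread.

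The snoRNP genes, which encode the enzymes and scaffolds that modify ribosomal RNA, were below 0 in 6 of 6 cases, with a median log2 fold change of -0.20, which was -0.12 without Ex4 4. Rrp9 encodes a protein of the U3 particle, which is needed for the first cuts of the precursor, and it stood at 132, 136, 139 and 113 CPM in Ex4 libraries, against 159, 148, 166 and 166 CPM in PBS libraries. All Ex4 values lay below all PBS values. The log2 fold change of Rrp9 was -0.30 (SE 0.12, edgeR adjusted p = 0.566). Leaving out Ex4 4 moved it to -0.25. Nop56, a core protein of the box C/D particles that guide methylation, was at 577, 555, 589 and 409 CPM with Ex4 and at 598, 689, 565 and 645 CPM with PBS. Here 3 Ex4 libraries lay close to the lowest PBS library and Ex4 4 far below it. Its partner gene Nop58 overlapped widely, at 432 ± 89.9 CPM with Ex4 and 474 ± 37.7 CPM with PBS (SD, n = 4 each). Fbl, which encodes the methyltransferase fibrillarin, had a log2 fold change of -0.11. Dkc1 encodes dyskerin, the pseudouridine synthase of the H/ACA particles, and stood at 224, 215, 247 and 151 CPM in Ex4 libraries and at 266, 254, 234 and 225 CPM in PBS libraries. Nolc1, a nucleolar phosphoprotein gene of snoRNP transport and assembly, had a log2 fold change of -0.17.

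Of 8 factors of the small subunit, 7 were below 0, and none had an unadjusted p under 0.05. Their median log2 fold change was -0.11, and it was -0.07 without Ex4 4 or PBS 2, -0.17 without PBS 4 and -0.22 without Ex4 3. Heatr1 and Utp20 encode large scaffold proteins of the small subunit processome, the particle that cuts the precursor on the way to the 40S subunit. Heatr1 was at 99.8, 84, 87.6 and 74.7 CPM with Ex4 and at 106, 101, 99.4 and 96.2 CPM with PBS, where Ex4 1 alone exceeded any PBS library. Utp20 averaged 30.2 ± 4.85 CPM with Ex4 and 36.4 ± 4.1 CPM with PBS (SD, n = 4 each), and its log2 fold change was -0.27. For the processome genes Utp4, Wdr43, Wdr75 and Nop14 the log2 fold changes ran from -0.17 to -0.06. Utp4 was at 201, 194, 197 and 146 CPM with Ex4 and at 222, 269, 184 and 158 CPM with PBS, so that 3 Ex4 libraries were alike while the PBS libraries differed widely. Wdr43, at 389.7, 361, 434 and 294 CPM with Ex4 and 371, 451, 387 and 371 CPM with PBS, was low in Ex4 4. Rrp12, which encodes a factor of 40S subunit export, scattered widely in the Ex4 group, at 17.6, 11.7, 12.6 and 20.7 CPM with Ex4 against 15.8, 15.7, 19 and 16.8 CPM with PBS. Ex4 4, the lowest library for most of the 35 genes, was the highest for this one. Tsr1, a gene of late 40S maturation, averaged 53 CPM in each group (log2 fold change 0.00, SE 0.16). Its exons overlap those of the antisense gene Srr, and whether the counting used strand is not given, so its value is uncertain.

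Genes of the large subunit held both the lowest and the highest log2 fold change of the 35. Wdr12, Bop1 and Pes1 encode the 3 proteins of the PeBoW complex, which acts in the maturation of the large subunit. Wdr12, at chr1:60071361-60098500, was measured at 130.0, 150.3, 173 and 95.9 CPM in Ex4 libraries and at 199, 204, 184 and 182 CPM in PBS libraries. The lowest PBS library thus stood above the highest Ex4 library, and the Ex4 values were spread more widely. For Wdr12 edgeR gave a log2 fold change of -0.48 (SE 0.16, unadjusted p = 0.00888, adjusted p = 0.456). Without Ex4 4 it was -0.36, and over all alternatives its adjusted p ran from 0.208 (DESeq2) to 0.832. Both partners of Wdr12 lay nearer to 0. Pes1 was at 118, 101, 101 and 77.6 CPM with Ex4 and at 117, 122, 106 and 116 CPM with PBS (log2 fold change -0.21, and -0.13 without Ex4 4), and Bop1 had a log2 fold change of -0.11. Whether Wdr12 differed from its partners was not tested.

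Ppan, which encodes another 60S assembly factor, was at 115, 110.1, 116 and 87.9 CPM in Ex4 libraries and at 122, 147, 128 and 142 CPM in PBS libraries. Its groups did not overlap, although Ex4 3 and PBS 1 were close, and its log2 fold change was -0.33 (SE 0.13, edgeR adjusted p = 0.557). Rrs1, a gene of 5S ribonucleoprotein recruitment, stood at 82.4, 89.3, 115 and 76.6 CPM with Ex4 and at 96.9, 108, 116 and 104 CPM with PBS, so that Ex4 3 fell among the PBS libraries. Nop16 was at 281, 307, 356 and 231 CPM with Ex4 and at 342, 383, 319.6 and 322 CPM with PBS, and here too Ex4 3 was the library that entered the PBS range. Nop16, Nop2, Nip7 and Noc2l, all genes of 60S assembly, had log2 fold changes from -0.22 to -0.15, and exons of Noc2l overlap those of the antisense gene Samd11. Ddx21, the gene of an RNA helicase that acts in RNA polymerase I transcription and in processing, was nearly constant in the Ex4 group, at 212, 206, 205 and 201 CPM, and ranged more widely with PBS, at 193, 246, 227 and 256 CPM. The exception was Rrp1b, whose product is also a 60S processing factor, at 537, 432, 463 and 435 CPM with Ex4 and 269, 512, 400.1 and 435 CPM with PBS. Its log2 fold change of 0.21 (SE 0.17, edgeR adjusted p = 0.843) moved with single libraries, being 0.05 without the low PBS 1, 0.12 without the high Ex4 1 and 0.33 without PBS 2.

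The 3 metabolic genes were all below 0. Srm encodes spermidine synthase, and it was measured at 259.6, 255, 268 and 202 CPM in Ex4 libraries, against 317, 331, 286 and 297 CPM in PBS libraries. No Ex4 library reached the PBS range, and the log2 fold change was -0.32 (SE 0.13, unadjusted p = 0.0261, edgeR adjusted p = 0.565). Odc1, the gene of ornithine decarboxylase, which makes putrescine, was at 119.9, 119.9, 142 and 122 CPM with Ex4 and at 134, 166, 140.4 and 121 CPM with PBS. The groups of Odc1 overlapped, with PBS 4 at the Ex4 level and Ex4 3 at the level of PBS 3. Cad, whose product carries out the first steps of pyrimidine synthesis, stood at 40.8, 31.2, 24.6 and 46.4 CPM in Ex4 libraries and at 43.1, 49.5, 46.5 and 41.9 CPM in PBS libraries. The low Cad values lay in Ex4 2 and Ex4 3, while Ex4 4 was within the PBS range. Its log2 fold change was -0.34 (SE 0.18), -0.50 without Ex4 4 and -0.22 without Ex4 3.

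**Figure D2:**
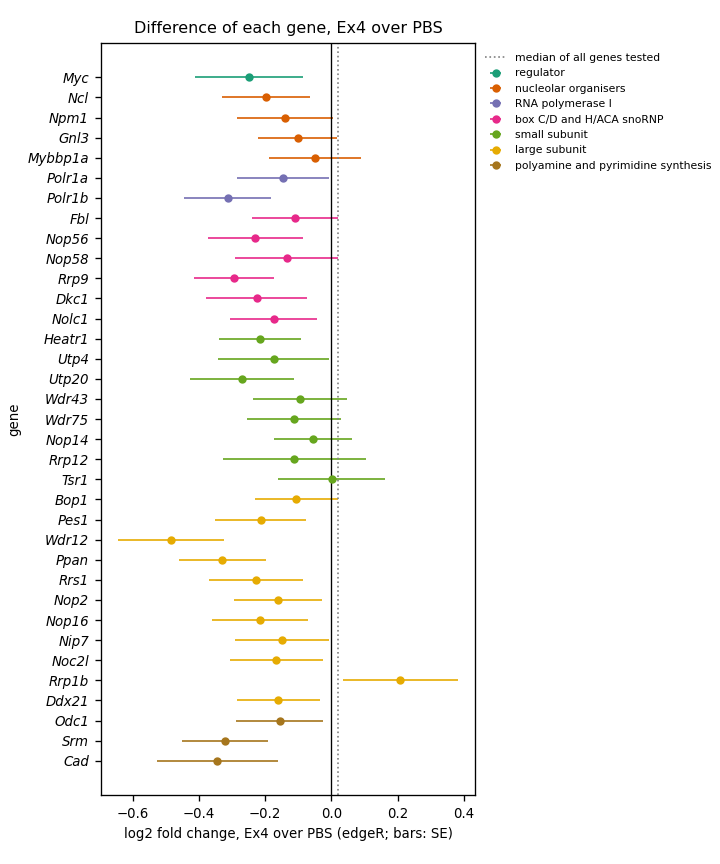
Log2 fold change of Ex4 over PBS for each of the 35 genes (points, coloured by role) with the SE from the edgeR fit (bars), and the median of all genes tested, 0.02, as a dotted line. Of the points 33 lie below 0, from -0.48 for Wdr12 upwards, Tsr1 lies at 0 and Rrp1b at 0.21.

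Per coding kilobase the order of the levels was led, after Npm1, by Nop16 at 541 CPM with Ex4 and 629 CPM with PBS, Ncl at 387 CPM with Ex4 and 444 CPM with PBS, and Myc at 366 CPM with Ex4 and 435 CPM with PBS. At the low end were Cad, Utp20 and Rrp12, at 5.35, 3.61 and 4.02 CPM per coding kilobase with Ex4 and 6.78, 4.35 and 4.34 with PBS. Ncl and Myc were closer to each other than their SDs, and so were Utp20 and Rrp12. This order rests on coding length alone and could change with exon length. All exons together held 1845 bases in Nop16, with 543 coding, and 10188 in Ncl, with 2121 coding.

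The relation of the assembly genes to Myc was followed over the 8 libraries. The mean log2 CPM of the other 34 genes and the log2 CPM of Myc gave a Pearson r of 0.76 and a Spearman rho of 0.79, and with each group's mean subtracted r was 0.66. Without the 2 libraries farthest from the median of Myc, Ex4 1 and Ex4 4, r was 0.46, and without Ex4 4 alone it was 0.44, so the relation rests to a large part on that library. In PBS 1 the Myc level of 8.87 was close to the 8.82 of Ex4 1, while the mean of the other 34 genes was 7.29 against 7.25 in Ex4 1. These values describe 8 points that share library, depth and scaling, and no p is given for a mean over chosen genes.

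**Figure D3:**
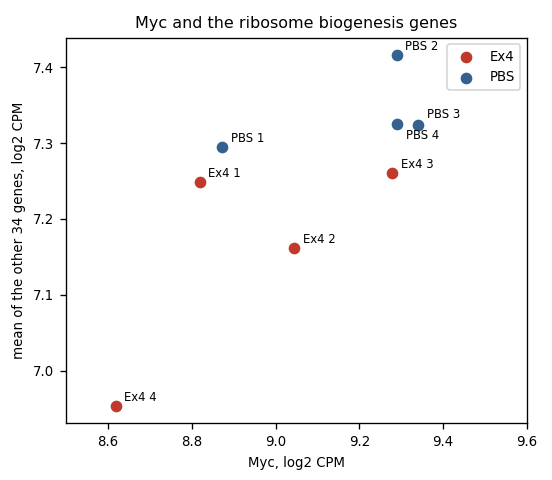
Mean log2 CPM of the 34 genes other than Myc (vertical) against log2 CPM of Myc (horizontal), 1 point per library, Ex4 red and PBS blue. Ex4 4 lies at the lower left (8.62, 6.95), and the other 7 libraries lie between 7.16 and 7.42 on the vertical axis, with PBS 1 and Ex4 1 at low Myc.

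Gene by gene, 31 of the 34 correlated positively with Myc, beside 49.6% of all other genes tested, and their median r was 0.59, a value that 9.24% of all other genes reached. Rrs1 (r = 0.93), Npm1 (0.91), Fbl (0.90) and Ncl (0.85) followed Myc most closely, although none of them separated the groups. Among the 4 genes whose groups did not overlap, r was 0.79 for Ppan, 0.77 for Wdr12, 0.72 for Rrp9 and 0.64 for Srm. Cad (-0.18), Rrp12 (-0.34) and Utp20 (-0.12) ran against Myc. With the log2 total count, the mean of the 34 genes gave r = 0.49 and rho = 0.02 over the 8 libraries, and Myc gave 0.55 and 0.19. Without Ex4 3 and Ex4 4, the libraries farthest in depth, r was -0.27 for the 34 genes and -0.11 for Myc, whereas with group means subtracted it was 0.88 and 0.75. With the genes detected at matched depth, r was -0.65 for the 34 genes and -0.71 for Myc, and without the farthest libraries, Ex4 4 and PBS 2, it was 0.08 and -0.48. The epithelial marker score gave r = 0.21 and rho = 0.50 with the 34 genes, and r = 0.65 and rho = 0.81 with Myc. Without its farthest libraries, Ex4 1 and PBS 3, r was 0.12 for the 34 genes and 0.54 for Myc. With group means subtracted it was -0.08 and 0.57. The part of these measures in the relation was not tested.

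Among themselves, most of the 35 genes varied together, with a median r of 0.55 over 595 pairs, beside -0.01 for all pairs of genes tested. Of the 595 pairs 518 were positive, and the lowest r was -0.56. With group means subtracted the median was 0.43, again beside -0.01, with 475 pairs positive and a lowest r of -0.89. Ex4 4, the lowest library in 27 of the 35 genes, is part of all these values. They were not computed without it, so its share in them was not tested. Ppan (r = 0.96 with the mean of the others apart from Myc), Nop56 (0.95) and Srm (0.95) were nearest to the common pattern. Rrp12 (-0.25), Rrp1b (-0.06) and Cad (0.04) did not share it. Outside the 35, the 5 genes with the highest r to their mean, among 8826 genes with a mean log2 CPM from 3 upwards, were Slc19a2 (0.98), Ruvbl1 (0.98), Hdgf (0.97), Polr3e (0.97) and Mbd1 (0.97). Ruvbl1, a helicase of snoRNP assembly, was at 115, 106, 123 and 88 CPM with Ex4 and at 131, 156, 131 and 138 CPM with PBS, and Slc19a2, which encodes a thiamine transporter, at 15.7, 13.1, 15.8 and 8.0 CPM with Ex4 and 18.4, 21.6, 17.1 and 16.7 CPM with PBS. In both, Ex4 4 was the lowest library and the groups did not overlap. That follows from the choice, since both were picked for their likeness to the mean of the 35. Neither passed the edgeR test (adjusted p = 0.528 for Ruvbl1 and 0.658 for Slc19a2). Hdgf, a growth factor gene, Polr3e, which encodes an RNA polymerase III subunit, and Mbd1, whose product binds methylated DNA, had log2 fold changes of -0.33, -0.31 and -0.18.

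MYC binds DNA together with MAX at the E-box CACGTG, which reads the same on both strands. Windows from 250 bases before to 50 bases after the transcription start (RefSeq, GRCm38.p6) were found for 28 of the 35 genes, and not for Myc, Npm1, Fbl, Rrp12, Rrs1, Bop1 and Srm. The motif was present for 7 of the 28, or 25%, beside 11.4% of the genes tested and 8.09% of all genes in that table. These 7 were Wdr43, Utp4, Mybbp1a, Nop2, Pes1, Tsr1 and Utp20. The 4 of them with the highest mean level are shown because they are the windows in which the textbook MYC site can be read directly, with the E-box in capitals, 5′ to 3′ on the strand of the gene:
Wdr43, chr17:71615965-71616264, plus strand: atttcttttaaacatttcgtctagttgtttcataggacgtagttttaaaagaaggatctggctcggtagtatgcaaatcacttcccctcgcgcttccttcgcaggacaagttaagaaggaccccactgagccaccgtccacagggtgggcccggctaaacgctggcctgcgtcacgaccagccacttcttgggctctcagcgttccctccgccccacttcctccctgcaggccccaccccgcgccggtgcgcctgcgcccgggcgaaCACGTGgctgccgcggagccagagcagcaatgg
Utp4, chr8:106893390-106893689, plus strand: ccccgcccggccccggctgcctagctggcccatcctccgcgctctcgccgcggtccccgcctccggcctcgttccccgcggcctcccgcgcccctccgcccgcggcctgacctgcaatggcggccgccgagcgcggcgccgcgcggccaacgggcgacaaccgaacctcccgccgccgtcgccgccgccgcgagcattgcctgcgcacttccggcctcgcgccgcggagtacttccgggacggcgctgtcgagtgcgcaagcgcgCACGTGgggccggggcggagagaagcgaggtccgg
Mybbp1a, chr11:72441077-72441376, plus strand: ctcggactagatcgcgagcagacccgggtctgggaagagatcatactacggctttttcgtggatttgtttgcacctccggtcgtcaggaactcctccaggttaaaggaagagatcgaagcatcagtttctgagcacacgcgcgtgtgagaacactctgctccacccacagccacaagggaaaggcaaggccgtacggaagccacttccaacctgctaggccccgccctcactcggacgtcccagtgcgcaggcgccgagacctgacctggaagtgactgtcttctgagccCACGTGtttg
Nop2, chr6:125131633-125131932, plus strand: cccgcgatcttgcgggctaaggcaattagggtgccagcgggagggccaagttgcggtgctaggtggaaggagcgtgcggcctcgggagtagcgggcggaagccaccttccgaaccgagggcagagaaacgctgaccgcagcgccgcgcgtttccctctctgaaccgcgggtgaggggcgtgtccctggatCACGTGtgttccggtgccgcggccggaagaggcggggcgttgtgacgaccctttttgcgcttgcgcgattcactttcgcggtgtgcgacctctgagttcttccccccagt
The site began 17 bases after the start in Wdr43, 15 after it in Utp4, 40 after it in Mybbp1a and 60 before it in Nop2. The median log2 fold change was -0.16 for the 7 genes with the motif in these windows and -0.17 for the 21 without it. Sites outside the windows were not searched, and whether the motif bears on the difference between groups was not tested. Wdr12, Rrp9 and Ppan, 3 of the 4 genes whose groups did not overlap, had no CACGTG in these windows. A match is only a description of these letters.

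Related genes outside the 35 were read from lists chosen by function, with earlier results of these data known. Beside the counts of each list with all 8 libraries stand the shares of all genes tested. Of these, 47.1% lay below 0, and at an unadjusted p under 0.05 3.9% were lower and 3.71% higher with Ex4. In the small subunit list (39 genes) 30 were below 0, with a median log2 fold change of -0.06, and in the large subunit list (44 genes) 33, with a median of -0.07, and 0 genes of either passed the edgeR test. Before adjustment, 4 genes of the small subunit list were lower and 1 higher with Ex4 at p under 0.05, and 5 of the large subunit list were lower. Without Ex4 4 the small subunit list had 19 of 39 below 0 and a median of 0.00, and the large subunit list 28 of 44 and -0.04, beside 32 of the 35 genes. Without Ex4 3 the small subunit list had 31 of 39 below 0 and a median of -0.15, and the large subunit list 39 of 44 and -0.16. Leaving out other single libraries gave medians from -0.13 to -0.05 for the small and from -0.11 to -0.07 for the large subunit list. Mdn1, which encodes the large ATPase that strips factors from the pre-60S particle, was at 91.4, 93.4, 98.7 and 86.6 CPM with Ex4 and at 151, 121, 119.7 and 127 CPM with PBS. Its groups were well apart and Ex4 4 was not set off, and its log2 fold change was -0.49 (SE 0.12, unadjusted p = 0.0014, edgeR adjusted p = 0.335), while DESeq2 gave it an adjusted p of 0.0462. Nle1, whose product works with Mdn1, had a log2 fold change of -0.58, and the processome genes Tbl3 and Utp6 had -0.38 and -0.33.

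In the list of snoRNP assembly 11 of 14 were below 0 (3 at an unadjusted p under 0.05), and the median of -0.14 was -0.08 without Ex4 4 and -0.21 without Ex4 3. The list was led by Ruvbl2, the partner of Ruvbl1, at 108, 113, 107 and 90.4 CPM with Ex4 and 153, 157, 132 and 137 CPM with PBS (log2 fold change -0.47, SE 0.12, edgeR adjusted p = 0.351). The remaining RNA polymerase I genes split, with 7 of 13 below 0 and a median of -0.01, which ran from -0.10 without PBS 1 to 0.03 without Ex4 4 or PBS 4. Among them Ubtf, which encodes the factor that opens ribosomal DNA for that polymerase, was at 73.5, 71.1, 69.3 and 79.3 CPM with Ex4 and 83.1, 98.6, 82.9 and 103 CPM with PBS, without overlap, and Cd3eap, a subunit gene of the same enzyme, had a log2 fold change of -0.23. In the RNA exosome, which trims ribosomal RNA, 10 of 14 were below 0 (median -0.14, with -0.07 without Ex4 4 and -0.21 without Ex4 3), with Exosc7 at -0.39 and Exosc4 at -0.26. None of these genes passed the edgeR test over all genes.

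Of the partners of MYC 6 of 12 were below 0, with a median of -0.04. With single libraries left out this ran from 0.00 without Ex4 4, with 6 of 12 below 0, to -0.11 without Ex4 3, with 9 of 12. Mxi1, an antagonist that competes for MAX, averaged 21.3 ± 4.92 CPM with Ex4 and 15.2 ± 5.66 CPM with PBS (SD, n = 4 each), and Mycl was near 1 CPM or below in most libraries. Of 29 other MYC targets, 26 were below 0 with a median of -0.20, and with single libraries left out 25 to 28 were below 0, with medians from -0.25 (without Ex4 3) to -0.17 (without PBS 4). At an unadjusted p under 0.05, 7 of the 29 were lower with Ex4 and 0 higher, and 0 passed the adjusted edgeR test. Phb, which encodes the mitochondrial scaffold prohibitin, was at 138, 161, 159 and 120.2 CPM with Ex4 and 233, 188, 191 and 185 CPM with PBS (log2 fold change -0.46, SE 0.14, edgeR adjusted p = 0.429). Slc19a1, a folate transporter gene, had a log2 fold change of -0.35. In nucleotide synthesis 20 of 27 were below 0 (median -0.20, from -0.24 without Ex4 3 to -0.10 without Ex4 4, and 5 at an unadjusted p under 0.05), with the purine enzyme gene Pfas at -0.66 and the serine to glycine enzyme gene Shmt2 at -0.37.

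Polyamine genes other than Odc1 and Srm were mixed, 7 of 12 tested below 0, with a median of -0.03 that was -0.13 without PBS 3 and -0.10 without Ex4 3. Smox, which encodes the enzyme that oxidises spermine back to spermidine, was at 25.1, 17.9, 30.2 and 21.4 CPM with Ex4 and at 10.1, 16.1, 12.5 and 13.7 CPM with PBS. Its groups did not overlap in the upward direction, which 2.29% of all genes tested showed, and its log2 fold change was 0.85 (SE 0.21, edgeR adjusted p = 0.321), with an adjusted p of 0.0447 in DESeq2. Arg2, an arginase gene that feeds ornithine to the pathway, had a log2 fold change of -0.82 at a few CPM. In the list of amino acid uptake and mTORC1 10 of 14 were below 0 (median -0.10, from -0.17 without PBS 3 to -0.04 without PBS 2), with the arginine transporter gene Slc7a1 at -0.30 and Eif4ebp1, the gene of a translation repressor, at -0.45. Of 13 tested p53 targets that respond to nucleolar stress, 8 were below 0 (median -0.05, from -0.14 without PBS 3 to 0.02 without PBS 1). Among them Pmaip1, which encodes the cell death protein NOXA, was at 0.61 (SE 0.21). Phlda3 was at -1.29 (SE 0.51), with overlapping groups at low levels of 0.66 to 5.53 CPM. No gene of these lists passed the edgeR test. Among all lists of related genes, cell type markers apart, DESeq2 called Mdn1 and Smox and limma-voom called 0. Over all genes, DESeq2 called 75 of 21439, edgeR 2 of 14691 and limma-voom 1 of 14691.

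Ribosomal protein genes, the structural counterpart of the assembly factors, lay on the other side of 0. Of 77 tested, 70 had a log2 fold change above 0, beside 52.9% of all genes tested, with a median of 0.15. None passed the edgeR test, 1 had an unadjusted p under 0.05, and in none of the 77 were the groups without overlap. Their mean log2 CPM was 7.88, 8.0, 8.19 and 8.11 in Ex4 libraries and 7.55, 7.69, 8.03 and 8.18 in PBS libraries. PBS 1 and PBS 2 held the low values, and without PBS 1 57 of 78 were above 0 with a median of 0.04. The median was 0.08 without PBS 2, 0.07 without Ex4 3 and 0.24 without PBS 4, with 75 of 78 above 0 in the last case, and it ran from 0.12 to 0.19 without any one of the others. Rpl39 and Rpl32 had log2 fold changes of 0.49 and 0.36. Many of these genes have near-identical pseudogene copies, so their counts are uncertain. Ex4 4, the lowest library for most of the 35 genes, was the second highest Ex4 library for ribosomal proteins, and whether both classes differed from each other was not tested.

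**Figure D4:**
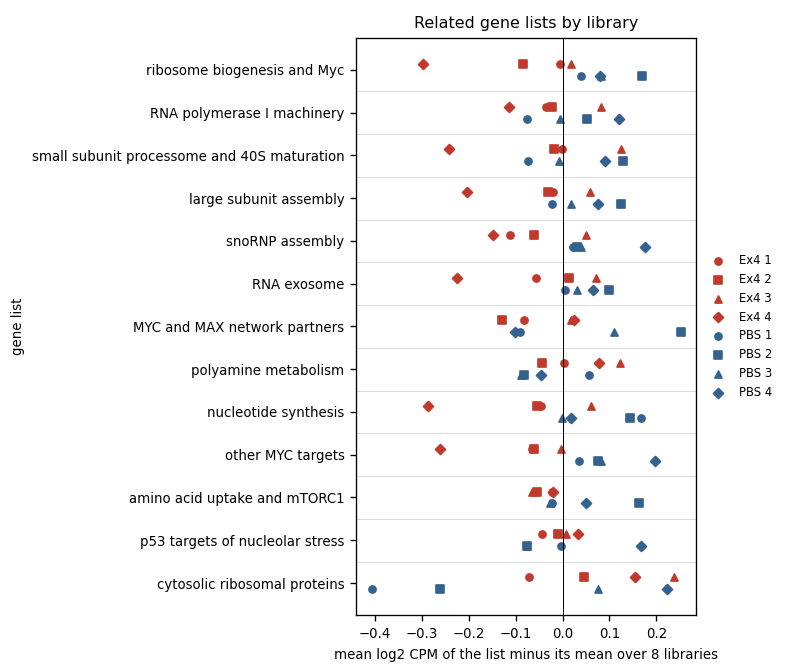
Mean log2 CPM of each related gene list minus its own mean over the 8 libraries (horizontal), 1 row per list, Ex4 red above PBS blue, 1 marker shape per replicate number. Ex4 4 is set off to the left for the 35 genes, both subunit lists, the exosome, nucleotide synthesis and other MYC targets, but not for ribosomal proteins, where PBS 1 and PBS 2 lie to the left.

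The sample numbers in the descriptions fall into runs, 3 to 6 and 17 to 19, with Ex4 3 alone at 11, and the labels do not say what the numbers stand for. Within the first run (2 Ex4 and 2 PBS libraries) 32 of the 35 genes were lower with Ex4, by a median of -0.15 on the log2 CPM scale, beside 47.0% of all genes. Within the second (Ex4 4 against 2 PBS libraries) 32 of 35 were lower, by a median of -0.42, beside 47.2% of all genes. Myc differed by -0.15 in the first run and by -0.70 in the second.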

How the data were processed

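IEL messenger RNA of 8 mice was profiled with the strand-specific TruSeq kit, per the labels' protocols. What the authors deposited is a table of raw counts by gene symbol, with 1 column per mouse. STAR 2.7.9a, DESeq2 and mm10 are named without role or order, per the submitters' processing notes, while the sources used here name neither the read counter, its strand setting nor the annotation. Reads of genes with near-identical copies or antisense exons could therefore be split or merged.

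The comparison used edgeR 4.0.16 under R 4.3.3 (filterByExpr filter, TMM scaling, robust quasi-likelihood F test of Ex4 against PBS, Benjamini-Hochberg adjustment over 14691 genes, threshold 0.05), and the test was checked on simulated counts. SEs follow from the fold change and its F statistic. Log2 CPM used a prior count of 2. Every pair of replicates differed beyond sampling noise (mean chi-square per gene 20.6 to 77.1). Genes detected were counted after thinning each library to 13386889 counts (mean of 5 draws). Coding length came from GENCODE M21, positions from RefSeq. The 35 genes and all lists were chosen with earlier results of these data known. Named were all 35, the 2 genes of each list with the smallest p, and the 5 most alike in pattern. Alternatives were DESeq2 1.42.0, limma-voom (limma 3.58.1), other scalings and filters, added terms, a replicate block and omitted libraries. The mean of the 35 and the count without overlap under other scalings and omissions were added after seeing the data. Python 3.11.15 drew the figures with matplotlib 3.10.9.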

Additional observations from a re-analysis of the deposited data

Results flagged for a closer look

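A library was picked out where its distance to the next one, as a share of the whole range of its 4-library group, exceeded Dixon's 95% limit. This happened in 6 of 110 groups over the 35 genes, the list means and the library measures, and chance alone gives about 1 in 20, or 5.5. Myc was low in PBS 1, at a log2 CPM of 8.87 with its neighbour at 9.29. Ex4 4 was low for Nop56 (8.68, neighbour 9.12), for Utp4 (7.19, neighbour 7.60) and for Srm (7.66, neighbour 8.0). Odc1 was high in Ex4 3 (7.15, neighbour 6.93). The mean of the snoRNP assembly list was high in PBS 4 (5.99, neighbour 5.85). No explanation was tested for these values.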

How the results depend on the processing

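None of the 35 genes passed under any of 20 alternatives, the lowest adjusted p being 0.208 for Wdr12 in DESeq2. The number below 0 ran from 32 to 34 over these alternatives, and with single libraries left out the median of the 35 ran from -0.24 to -0.12 and Myc from -0.39 to -0.16. The count of all genes called, 2 in edgeR, was 75 in DESeq2 and 8 without a filter. It was 1 in limma-voom, with the replicate block, and with the epithelial score, genes detected or label run as a term, and 1 to 14 with single libraries left out (14 without PBS 2). The r of the 34 genes with Myc was 0.63 with upper-quartile scaling, 0.54 with total counts only and 0.44 to 0.84 with single libraries left out. Tsr1, at 0.00 in edgeR, was -0.012 in DESeq2, -0.0010 in limma-voom, -0.0095 with RLE scaling, -0.022 with total counts only, -0.017 without a filter, -0.022 with the replicate block, -0.038 with the epithelial score, -0.14 with the label run and -0.064 without both PBS 2 and Ex4 3, and it ran from -0.10 to 0.12 with single libraries left out. Mybbp1a was 0.020 with genes detected as a term and ran from -0.12 to 0.024 with single libraries left out, and Rrp12 was 0.018 with the label run. The cause of these changes was not tested. Means of the 35 did not overlap between groups under any scaling run. With libraries left out they stayed apart too, which follows largely from their being apart with all libraries. The genes without overlap numbered 4 (2.66% of all genes) to 12 without both PBS 2 and Ex4 3 (6.87%). The replicate numbers did not pair the libraries: correlations of same-numbered deviations were 0.09, -0.03, -0.24 and 0.14, and Ex4 2, Ex4 3 and Ex4 4 each deviated most like a PBS library of another number. With the block the median of the 35 was -0.16 and Myc was at -0.26. SEs of single genes were 0.12 to 0.22, of the same order as most of the differences, and Ex4 4 was the shallowest library.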
